A study of Mus musculus with 18 samples.

Results

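The comparison concerns 6 of the 18 libraries of the series, chosen by the reverse transcription primer in their labels. In 3 libraries not-so-random primers were mixed with oligo(dT) (NSRdT), and in 3 libraries oligo(dT) was used alone (dT). All 6 began from purified total RNA of 5G6GR mouse embryonic stem (ES) cells, grown without feeder cells in serum medium with leukemia inhibitory factor, puromycin and blasticidin. The RNA was diluted to 10 pg, copied by RT-RamDA, a reverse transcription that nicks and displaces cDNA so that one RNA can give many copies, and amplified with 17 PCR cycles. The 5G6GR line is known for a drug-inducible form of the transcription factor Gata6, and no inducer is named in the labels. The rest of the series holds 3 libraries each with not-so-random primers alone (NSR), random hexamers (N6) and hexamers with oligo(dT) (N6dT), all from 10 pg, and 3 rRNA-depleted bulk libraries from 200 ng. The labels do not state whether libraries came from separate cultures, so the p-values measure spread between libraries of diluted RNA, which may be technical only. Because purified RNA was used, values are shares of that RNA, and fewer cells with a transcript cannot be told apart from less of it per cell.

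Oligo(dT) anneals to poly(A) tails, so it starts cDNA at the 3′ end of mature mRNAs. Not-so-random primers are a set of hexamers from which sequences matching ribosomal RNA (rRNA) were removed, and they can start cDNA along the body of an RNA with or without a tail. RNAs known to lack a poly(A) tail include the mRNAs of replication-dependent histones, which end in a conserved stem-loop, and the RNA polymerase III products 7SK, RNase P RNA and RNase MRP RNA. Malat1 is cut at its 3′ end by RNase P and carries no classical tail. Mitochondrial rRNAs and mRNAs carry short tails.

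The RNAs on which the comparison turns differed in the tracts of A that they hold. The following 30-base stretches are from GENCODE vM21 transcripts on GRCm38, 5′ to 3′ along each RNA. In the 4 histone mRNAs the capitals mark the stem-loop:
Hist1h2ap: agaaaaaaaaaaaaGGCTCTTTTCAGAGCC
Hist2h2aa1: cgagctcctaaaaaGGCTCTTTTCAGAGCC
Hist1h1c: ctaacaatccaaaaGGCTCTTTTCAGAGCC
Hist1h2bk: cgtctagcaccaaaGGCTCTTTTAAGAGCC

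The Hist1h2ap stretch lies at chr13:21833029-21833058 on the minus strand and holds a run of 12 A directly before the stem-loop. The Hist2h2aa1 stretch (chr3:96246018-96246047, plus) holds a run of 5, the Hist1h1c stretch (chr13:23739498-23739527, plus) a run of 4 and the Hist1h2bk stretch (chr13:22036286-22036315, plus) a run of 3. In Malat1 and the mitochondrial rRNAs the capitals mark the longest run of A in the whole transcript:
Malat1: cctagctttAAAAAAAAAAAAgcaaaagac
mt-Rnr2: aaacttgctAAAAAAAcaacaaaatcaaaa
mt-Rnr1: atcaaacatAAAAAcgttaggtcaaggtgt

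The Malat1 stretch, with its run of 12 A, lies at chr19:5795979-5796008 on the minus strand. The stretch of the 16S rRNA, mt-Rnr2, with a run of 7 A lies at chrM:1479-1508, and that of the 12S rRNA, mt-Rnr1, with a run of 5 lies at chrM:731-760, both on the plus strand. The 3′ ends of 2 small RNAs without a tail are set beside that of Dppa5a, a short polyadenylated mRNA of ES cells. In Dppa5a the capitals mark the first AATAAA, the poly(A) signal motif, and a further AATAAA follows unmarked:
Rpph1: ataacccaattcagactactctcccccgcc
Rmrp: caaccacacggggctcattctcagcgcggc
Dppa5a: aAATAAAaaataaaattgaagtgattaaaa

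These ends lie at chr14:50807449-50807478, chr4:43492788-43492817 and chr9:78367052-78367081, all on the minus strand. The longest run of A anywhere in Rpph1 was 2 bases and in Rmrp 3 bases. That a tract primed cDNA was not tested.

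The libraries of each group resembled each other. Total estimated counts were 8315792, 5333546 and 8271882 in NSRdT and 9991575, 10134741 and 10066960 in dT. CPM, the count of a gene scaled to a common library size, were compared between libraries on a log scale. Pearson correlations of log2(CPM + 1) between libraries were 0.845 to 0.848 within NSRdT, 0.784 to 0.796 within dT and 0.719 to 0.733 between the groups. The ES cell factors Pou5f1, Sox2 and Nanog were present in all 6 libraries, as their values below show. Of other cell types, the primitive endoderm list had 10 of 18 genes above the count filter, and its summed share was 0.0895 to 0.101% of counts in NSRdT and 0.0771 to 0.105% in dT. Its marker Ttr was at 0 in all 6 libraries, while Gata6 itself had 74.0, 76.9 and 73.3 CPM of library total in NSRdT and 44.8, 78.8 and 55.4 CPM in dT. The mesendoderm genes T, Gsc and Cer1, the fibroblast genes Dcn and Lum and the trophectoderm genes Cdx2 and Ascl2 were at 0 in all 6 libraries. Other members of these lists were present, as Fn1 with 793 to 961 CPM in NSRdT and 650 to 975 CPM in dT, Vim with 119 to 130 CPM in NSRdT and 245 to 326 CPM in dT, and Tfap2c with 5.80 to 9.14 CPM in NSRdT and 13.9 to 37.1 CPM in dT. Their part in the results was not tested. Of 9 neuroectoderm genes 5 passed the filter and edgeR called none, with 2 at an unadjusted p under 0.05 and 2 called by DESeq2, and with summed shares of 0.00317 to 0.0046% in NSRdT and 0.00661 to 0.00877% in dT.

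Adding not-so-random primers changed what kind of RNA filled the library. Genes of nuclear protein-coding mRNAs held 45.7 ± 0.556% of estimated counts in NSRdT and 67.8 ± 0.841% in dT (SD, n = 3 each). Together, rRNA and rRNA-like loci held 44.9 ± 0.674% in NSRdT and 23.4 ± 0.711% in dT. No class share named here overlapped between the groups unless stated, and each difference had p = 0.1 in a two-sided exact permutation test, the smallest value that 3 against 3 libraries allow (0.105 after Benjamini-Hochberg adjustment over 21 classes).

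The rRNA classes did not move as 1 block. Loci annotated as nuclear rRNA, nearly all of it the 18S copy Rn18s-rs5, held 10.4 ± 0.47% in NSRdT and 0.277 ± 0.0164% in dT, a ratio of 37.5. The 2 loci Gm42418 and Gm26917, which are known to hold rRNA sequence, held 13.3 ± 0.014% in NSRdT and 0.697% in dT. In contrast, 4 loci with rRNA-like reads, led by Lars2, held 9.13 ± 0.112% in NSRdT and 16.5 ± 0.627% in dT. Besides Lars2 these were Mir6236, AA474408 and Gm15662. Lars2, which encodes the mitochondrial leucyl-tRNA synthetase, reached 74400 CPM in NSRdT and 159000 CPM in dT, against 22.1 CPM in the rRNA-depleted bulk libraries. Its counts in RT-RamDA are therefore given here with rRNA and not as mRNA.

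**Figure D1:**
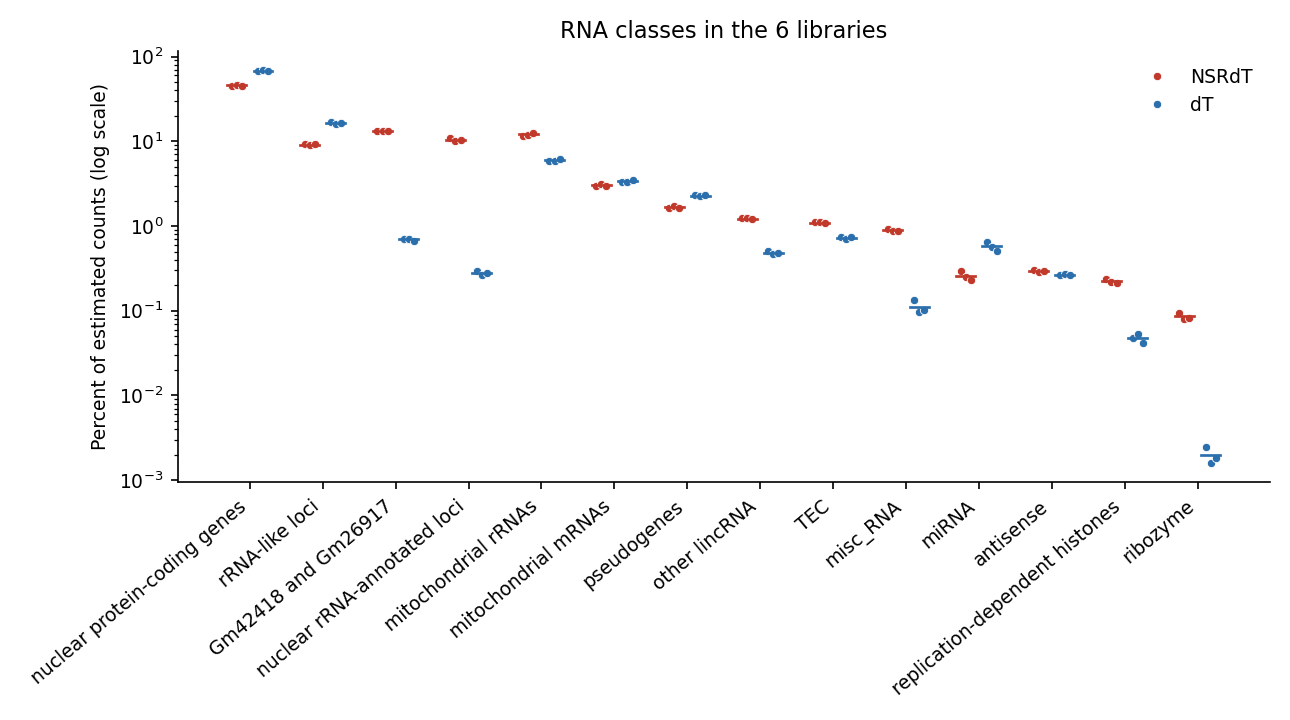
Percent of all estimated counts held by 14 RNA classes (log scale), with 1 point per library and a bar at the mean of 3 libraries. Classes such as replication-dependent histones (0.224% in NSRdT and 0.0474% in dT) and ribozymes lie higher in NSRdT, while nuclear protein-coding genes and rRNA-like loci lie lower.

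Smaller non-coding classes also held a larger share in NSRdT. Ribozyme genes, here RNase P and RNase MRP RNA, held 0.0857% of counts in NSRdT and 0.00196% in dT, a ratio of 43.7. The misc_RNA class, which contains 7SK and the signal recognition particle RNA, held 0.888 ± 0.0298% in NSRdT and 0.111% in dT. Long intergenic RNAs outside the other classes held 1.23 ± 0.0185% in NSRdT and 0.486% in dT. Genes listed as snRNA went the other way, with 0.0554 ± 0.0133% in NSRdT and 0.117% in dT, though they overlapped once rRNA and mitochondrial genes were left out of the total. So did miRNA genes other than Mir6236, with 0.258 ± 0.0333% in NSRdT and 0.573% in dT. Mir6236 is counted here with the rRNA-like loci. With it, transcripts of the miRNA type held more in NSRdT, at 1.005 ± 0.0561% against 0.837 ± 0.0833% in dT. That wider sum was not tested. The sum without Mir6236 and most single genes ran apart. Of the 64 miRNA genes that passed the filter, Mir6236 among them, 52 had a positive log2 fold change. Only 1, Mir6236, was called higher and 3 were called lower. In NSRdT 304 ± 33.6 miRNA genes were detected, against 150 ± 32.3 in dT. Many miRNA genes lie inside introns or exons of longer host genes, so these counts may hold host RNA. With rRNA, rRNA-like and mitochondrial genes taken out of the total, nuclear protein-coding genes held 87.8 ± 0.195% in NSRdT and 92.6% in dT, and long intergenic RNAs 2.35% and 0.664%.

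Gene by gene, 13049 genes passed the filter on low counts, and 627 of them (4.8%) differed at an adjusted p under 0.05 by edgeR's quasi-likelihood F test. Of these, 347 genes (2.66%) were higher in NSRdT and 280 (2.15%) were lower. Both shares, taken over all genes tested, are the background for each count of calls below. The libraries of the 2 groups did not overlap for 28.4% of all genes tested. The median log2 fold change of all genes was 0.03 under TMM scaling. Scaled to library totals alone, where the median was -0.45, 1293 genes were called with 286 higher and 1007 lower. Scaled to ERCC spike-ins, where the median was -0.93, the calls were 272 higher and 2680 lower, so each direction below is relative to the bulk of mRNAs in a library and not per amount of RNA. The number of calls changed with the libraries used, and was 255, 236 and 278 without NSRdT replicate 1, 2 and 3, and 439, 474 and 410 without dT replicate 1, 2 and 3. Single genes are described below with CPM under TMM scaling unless another scale is named, and log2 fold changes are given ± SE.

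Several small structural RNAs that lack a tail rose. Rpph1, the RNA subunit of RNase P that matures tRNA 5′ ends, had 343.7, 268.6 and 307.0 CPM in NSRdT against 0.690, 0.0836 and 0 CPM in dT. All NSRdT libraries were far above all dT libraries, a log2 fold change of 10.15 ± 0.69 (adjusted p = 0.000146, edgeR). With dT values near 0, Rpph1 passed the filter on low counts only through NSRdT, so its fold and p only describe it. Rmrp, the RNA of RNase MRP, which cuts pre-rRNA, had 768.9, 653.1 and 685.2 CPM in NSRdT against 19.1, 13.6 and 15.4 CPM in dT (log2 fold change 5.45 ± 0.19). Rn7sk, which holds the elongation factor P-TEFb inactive, had 4771, 4462 and 4730 CPM in NSRdT against 316.6, 273.3 and 287.4 CPM in dT (3.99 ± 0.08). Rn7s1 and Rn7s2, copies of the signal recognition particle RNA that could not be told apart, had 2801 ± 119 CPM each in NSRdT and 298.6 ± 81.2 CPM in dT.

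Of 30 listed small RNAs without a tail 17 passed the filter, 6 rose and none fell, with a median log2 fold change of 3.23. The sixth, the telomerase RNA Terc, lay between 4.96 and 6.69 CPM in NSRdT and was at 0 counts in all dT libraries, so it was at least 23.6-fold higher against a floor of 3 counts per dT library. Its call was lost when any 1 library was left out, and the number that rose was then 5 in each case. Only 11 of the 17 had a positive fold. The U1, U11 and U12 members Rnu1a1 (-0.97), Rnu1b1 and Rnu1b2 (-0.68 each), Rnu11 (-0.96) and Rnu12 (-1.57) and the U3 member Rnu3a (-0.06) were negative, none of them called. The list's median is the shared value of Rn7s1 and Rn7s2, and Rnu3b1 to Rnu3b4 also share a value (3.89). Under ERCC scaling 6 rose and 1 fell. Of small nucleolar and Cajal body RNAs, which guide modification of rRNA and snRNA, only 55 of 1559 passed the filter, and 4 rose, among them Scarna10 (8.77 to 14.8 CPM in NSRdT and 0 in dT, at least 48.5-fold). All 4 were at 0 counts in dT and passed the filter only through NSRdT, as did Terc, so these counts only describe them. Without any 1 library at most 1 of the 4 was called.

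Of 17 listed nuclear long non-coding RNAs 14 passed the filter, 5 rose and none fell. Malat1, an RNA of nuclear speckles, had 4450, 4632 and 4579 CPM in NSRdT against 50.7, 25 and 53.2 CPM in dT, a log2 fold change of 6.73 ± 0.30 (adjusted p = 1.01e-05, edgeR). Neat1, the scaffold of paraspeckles, has a short polyadenylated and a long form without a tail, and it averaged 271.3 ± 40.2 CPM in NSRdT and 68.9 ± 19.1 CPM in dT (1.98 ± 0.24). The imprinted antisense RNA Kcnq1ot1 (2.93 ± 0.18) and the imprinted RNA Rian (2.80 ± 0.31) also rose. Xist had 175.8, 45.6 and 40.5 CPM in NSRdT and 2.33, 0 and 1.69 CPM in dT, so its groups did not overlap but 1 NSRdT library stood well above the others. The call of Xist (log2 fold change 6.02 ± 1.17) was lost without NSRdT replicate 1, 2 or 3 and without dT replicate 1 or 3. With any 1 library left out 4 or 5 of the list rose, and the other 9, among them Meg3, Tug1 and Firre, were not called.

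**Figure D2:**
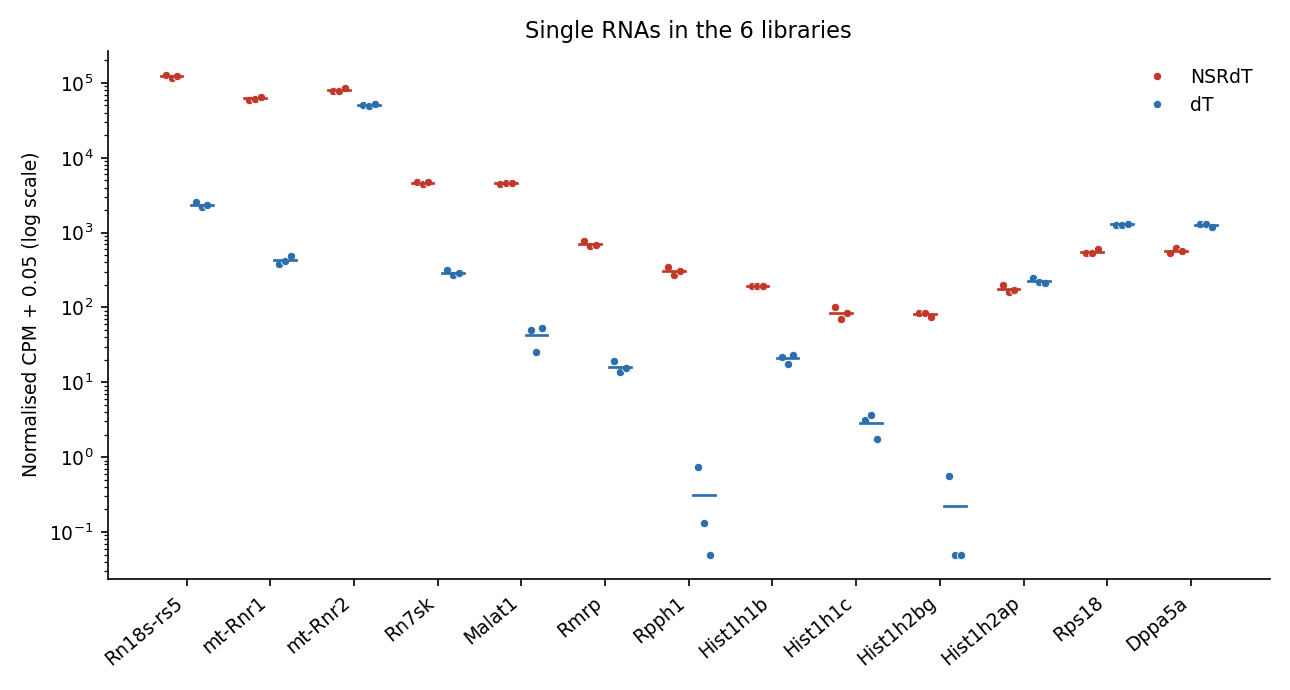
Normalised CPM plus 0.05 of 13 RNAs in each library (log scale), with 1 point per library and a bar at the mean of 3. The 2 groups lie far apart for Rpph1, Malat1 and mt-Rnr1, close together for mt-Rnr2 and Hist1h2ap, and in the opposite order for Rps18 and Dppa5a.

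Replication-dependent histone mRNAs, which supply nucleosomes in S phase, were 4.72 times as abundant in NSRdT. Their summed level was 2370, 2203 and 2140 CPM of library total in NSRdT and 475.6, 532.9 and 414.3 CPM in dT. H2B genes summed to 819.7 ± 39.3 CPM in NSRdT and 55.2 ± 16.8 CPM in dT, a ratio of 14.9. Linker histone H1 genes summed to 557.2 ± 26.6 CPM in NSRdT and 43.3 ± 5.89 CPM in dT, a ratio of 12.9. The ratio was 9.57 for H3, 6.80 for H4 and 1.26 for H2A, and the libraries of the groups did not overlap in any of these families.

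The summed level of the H2A family stood apart through a single gene pair. Hist1h2ap with its near-identical neighbour Hist1h2ao summed to 151.5 ± 19.3 CPM in NSRdT and 264.9 ± 18.1 CPM in dT, a ratio of 0.572. The other 18 H2A genes summed to 251.3 ± 6.07 CPM in NSRdT and 54.0 ± 17.1 CPM in dT, a ratio of 4.66. The pair made up more of the 474.3 CPM of histone signal in dT than all other members together. Under TMM scaling the log2 fold change of Hist1h2ap was -0.35 ± 0.15 and did not pass the test (adjusted p = 0.296, edgeR). It is the histone mRNA printed above with 12 A before the stem-loop.

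Among 57 histone genes that passed the filter, 37 had a reference transcript of the same version, and Hist1h2ap was the only one of these with a run of 8 A or more. The other 36 had runs of 2 to 7 A and a median log2 fold change of 3.98. Of the 57 genes 54 had a positive log2 fold change. Besides Hist1h2ap, 2 genes with a longest run of only 4 A were negative, and neither was called. Hist1h2an, another H2A gene, had 2.78 CPM in NSRdT and 11.6 CPM in dT (-2.06, adjusted p = 0.36, edgeR). Hist1h4m had a log2 fold change of -0.16. The Spearman correlation of longest A run with log2 fold change over the 37 genes was -0.36, a description only, since many of these genes share sequence and reads.

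Several single histone mRNAs rose. Hist1h1c, a linker histone with a run of 4 A before its stem-loop, had 100.2, 69.3 and 84.3 CPM in NSRdT against 3.10, 3.596 and 1.69 CPM in dT (4.91 ± 0.44, adjusted p = 0.000603, edgeR). Hist1h1b had 193.3, 194.9 and 193.3 CPM in NSRdT against 21.5, 17.6 and 23.3 CPM in dT (3.22 ± 0.21). Hist1h2bg had 74.9 to 84.1 CPM in NSRdT, and was at 0 in 2 dT libraries and at 0.517 CPM in the other. A gene named Hist2h2bb had 83.3, 105.7 and 93.3 CPM in NSRdT and no counts in dT, at least 369-fold higher against 3 counts per library. None of these 4 calls was lost when any 1 library was left out. Hist1h2bg and this Hist2h2bb gene, at or near 0 in dT, passed the filter only through NSRdT. Their folds and calls therefore only describe them.

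Across the list, 57 of 70 genes passed the filter, 20 rose, none fell and the median log2 fold change was 4.05. The number that rose was 7, 7 and 10 without NSRdT replicate 1, 2 and 3, 22, 24 and 19 without dT replicate 1, 2 and 3, and 36 with DESeq2. With library totals alone 21 rose and 1 fell, and under ERCC scaling 23 rose and 1 fell. Genes of this list that were at or near 0 in dT passed the filter only through NSRdT, so the counts and the median describe them and no more.

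Replacement histones, which are spliced and polyadenylated, went the other way. Their 10 genes summed to 1195 ± 106 CPM of library total in NSRdT and 2647 ± 81.0 CPM in dT. H2afz, the variant H2A.Z of promoters, averaged 507.7 ± 64.7 CPM in NSRdT and 782.9 ± 62.6 CPM in dT (log2 fold change -0.62 ± 0.12), and H3f3a, an H3.3 gene, averaged 376.7 ± 43.3 CPM in NSRdT and 620.7 ± 36.2 CPM in dT (-0.72 ± 0.12). H2afz, H3f3a and H3f3b fell, 3 of 10, beside 2.15% lower over all genes tested. None of the 10 was called without NSRdT replicate 2 or 3, and 2, 3, 2 and 1 were called without NSRdT replicate 1 and dT replicates 1, 2 and 3.

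**Figure D3:**
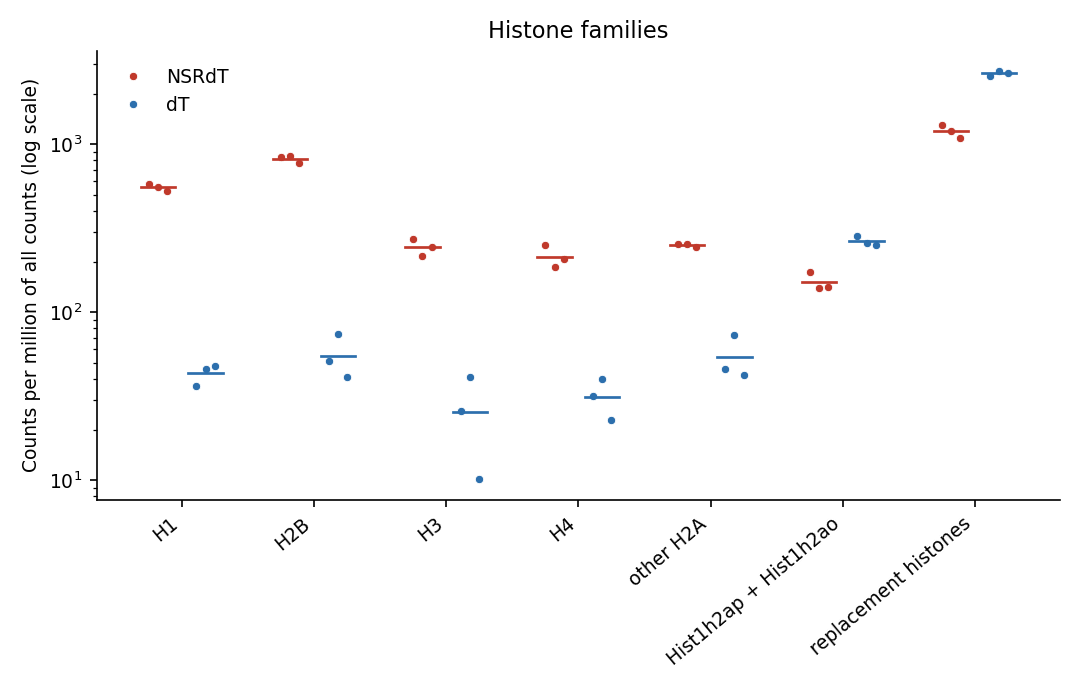
Summed CPM of library total (log scale) for histone families, 1 point per library with a bar at the mean of 3. H1, H2B, H3, H4 and the other H2A genes lie higher in NSRdT, while the pair Hist1h2ap and Hist1h2ao (151.5 CPM in NSRdT and 264.9 CPM in dT) and the replacement histones lie lower.

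The mitochondrial transcripts split within the same polycistronic RNA. The 12S rRNA mt-Rnr1 had 59740, 60440 and 65890 CPM in NSRdT against 383.8, 414.1 and 489.9 CPM in dT, a log2 fold change of 7.17 ± 0.11 (adjusted p = 4.59e-09, edgeR). Its neighbour, the 16S rRNA mt-Rnr2, had 77870, 78370 and 85740 CPM in NSRdT against 50340, 48680 and 51990 CPM in dT. That is a log2 fold change of 0.68 ± 0.04, which becomes negative under ERCC scaling. Both groups therefore held much 16S rRNA, and dT held little 12S rRNA. Whether the runs of 7 and 5 A printed above bear on this was not tested.

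Of the 13 mitochondrial mRNAs, which encode subunits of the respiratory chain, 7 rose and none fell under TMM scaling, although as a share of all counts the class held 3.01 ± 0.0777% in NSRdT and 3.37 ± 0.0891% in dT. Among them mt-Co1 had 9165, 9590 and 9494 CPM in NSRdT against 5064, 5474 and 5546 CPM in dT (0.81 ± 0.04, adjusted p = 4.37e-05, edgeR), a fold that turns negative under ERCC scaling. The largest fold was that of mt-Nd4l, a short reading frame next to mt-Nd4, at 1.38 ± 0.15. In contrast, mt-Atp6 averaged 3950 ± 221 CPM in NSRdT and 4532 ± 41.3 CPM in dT (-0.20 ± 0.05, adjusted p = 0.0723, edgeR). The list's median of 0.48 falls to -0.47 under ERCC scaling, and 7 members were called whichever library was left out. The table also lists 6 near-identical nuclear copies of these genes, which summed to 1220 ± 250 CPM of library total in NSRdT and 1530 ± 76.3 CPM in dT, so single members are less certain than the whole. Of 22 mitochondrial tRNA genes 12 passed the filter, and none was called by edgeR or DESeq2 or had an unadjusted p under 0.05.

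The fold changes of mRNAs were ordered by transcript length. For nuclear protein-coding genes the median log2 fold change was -0.78 in transcripts of 500 to 1000 bases (752 genes) and 1.06 in those over 8000 bases (525 genes). In between it rose class by class, with -0.57 at 1000 to 1500 bases, -0.42 at 1500 to 2000, -0.19 at 2000 to 3000, -0.01 at 3000 to 4000, 0.32 at 4000 to 6000 and 0.70 at 6000 to 8000 bases. In the class under 500 bases, the quartiles were -1.04 and 2.06, and histone genes have a median modelled length of 476 bases.

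Of the 525 longest mRNAs 91 rose and none fell, and of the 752 at 500 to 1000 bases 10 rose and 97 fell. Over all 13049 genes tested, 2.66% were higher and 2.15% lower in NSRdT. The rise in the longest class was called in 35, 35 and 46 genes without NSRdT replicate 1, 2 and 3 and in 67 to 70 without any 1 dT library. In that class 53 rose and none fell with library totals alone, and 30 rose and 11 fell under ERCC scaling. The fall in the class of 500 to 1000 bases was called in 53, 48 and 53 genes without NSRdT replicate 1, 2 and 3, and in 64 to 72 without any 1 dT library. Library totals alone leave the medians of the 2 longest classes positive, at 0.59 and 0.23, and turn that of 4000 to 6000 bases to -0.15. ERCC scaling leaves only the longest class positive, at 0.11. The order of the classes from 500 bases upward was kept under both.

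Across genes, length and log2 fold change had a Spearman correlation of 0.43, or 0.71 among the more abundant genes (log2 CPM averaging at least 5), and genes are not independent replicates. Weighted by counts, the mean transcript length of nuclear protein-coding genes was 3795, 3812 and 3809 bases in NSRdT and 2915, 2926 and 2952 bases in dT. It was 4020 bases with NSR alone and 3675 bases in bulk.

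**Figure D4:**
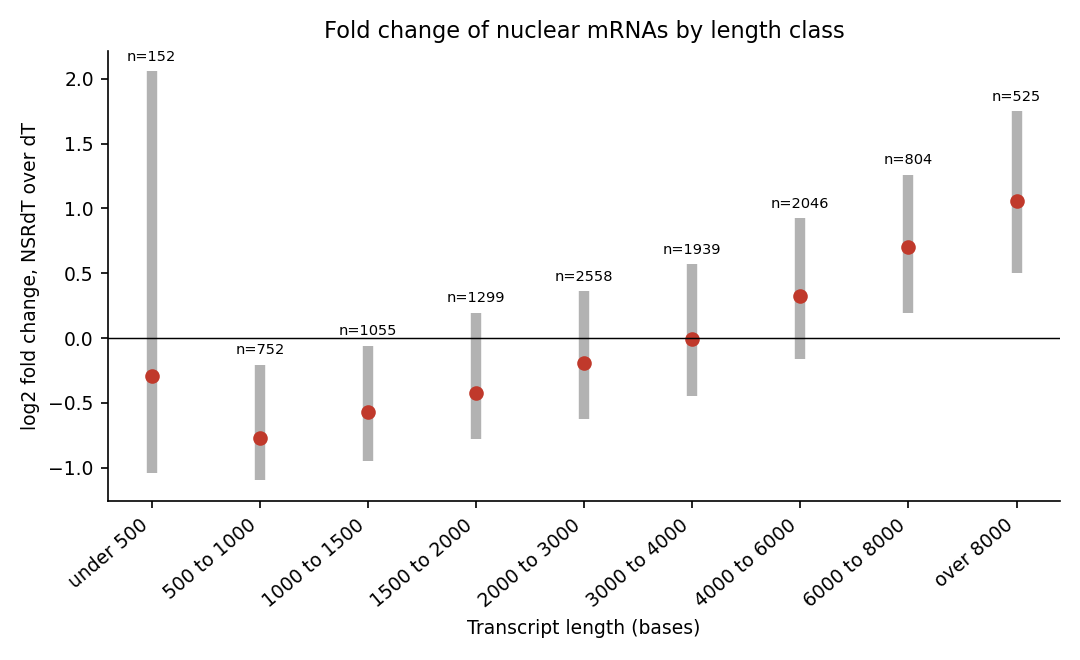
Median (point) and quartiles (grey bar) of the log2 fold change of NSRdT over dT for nuclear protein-coding genes in 9 classes of transcript length, with the number of genes above each bar. From 500 bases upward the median rises with each class, from -0.78 to 1.06.

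Runs of A inside the mRNA were set beside length in the 8847 nuclear mRNAs with a matching reference sequence. A run of 12 or more A, outside the last 50 bases, was present in 1.35% of transcripts under 1000 bases and in 29.5% of those over 8000 bases. Genes with such a run were then compared with genes holding no run of 8 A in each length class. Under 1000 bases the median log2 fold change was -0.05 with a run, in only 9 genes, and -0.77 without (637 genes). In the longer classes genes with a run lay lower. At 1000 to 2000 bases the median was -0.55 with a run (61 genes) and -0.48 without (1661 genes), and at 2000 to 4000 bases -0.30 with a run (221 genes) and -0.09 without (2787 genes). At 4000 to 6000 bases it was 0.17 with a run (231 genes) and 0.34 without (1034 genes), at 6000 to 8000 bases 0.59 (148 genes) and 0.70 (292 genes), and over 8000 bases 0.96 (132 genes) and 1.14 (161 genes). These are descriptions with no test.

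Among very long mRNAs, Srrm2, a splicing scaffold of nuclear speckles, had 569.4, 555.3 and 576.9 CPM in NSRdT against 86.4, 90.0 and 81.9 CPM in dT (2.72 ± 0.12, adjusted p = 1.01e-05, edgeR). Every NSRdT library held more than 6 times the level of any dT library. The giant membrane-linked protein gene Ahnak averaged 411.8 ± 33.8 CPM in NSRdT and 87.1 ± 13.8 CPM in dT (2.24 ± 0.17). Kmt2d, a histone H3 lysine 4 methyltransferase, averaged 216.0 ± 15.1 CPM in NSRdT and 34.4 ± 14.2 CPM in dT (2.65 ± 0.34). Huwe1, a ubiquitin ligase, averaged 952.2 ± 96.5 CPM in NSRdT and 263.6 ± 42.5 CPM in dT (1.85 ± 0.14). These 4 calls held with any 1 library left out.

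Of 80 listed very long mRNAs 78 passed the filter, 31 rose and none fell, with a median of 1.39. The number that rose was 15, 15 and 16 without NSRdT replicate 1, 2 and 3, 25 to 29 without any 1 dT library and 60 with DESeq2. With library totals alone 19 rose and none fell. Under ERCC scaling 9 rose and 2 fell, with a median of 0.43. The list was chosen by transcript length, so it repeats the length classes and adds names to them.

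Genes of DNA methylation and Polycomb repression moved little as a list, with a median of -0.06 over 25 genes (0.02 when scaled to totals of nuclear mRNAs), but 2 long ones rose. Among all genes tested 2.66% were higher. Tet1, a dioxygenase that oxidises methylated cytosine, had 1137, 1116 and 1251 CPM in NSRdT against 276.6, 260.9 and 266.6 CPM in dT (2.12 ± 0.09, adjusted p = 1.01e-05, edgeR). Tet2 had 350.1, 431.2 and 352.2 CPM in NSRdT against 135.7, 102.6 and 130.7 CPM in dT (1.62 ± 0.17). The modelled transcripts are 14369 bases for Tet1 and 9021 bases for Tet2, against a list median of 3630 bases.

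Most ribosomal protein mRNAs fell. Rps18, a small-subunit ribosomal protein mRNA of 600 bases, had 527.1, 538.2 and 602.0 CPM in NSRdT against 1282, 1272 and 1301 CPM in dT (-1.21 ± 0.09, adjusted p = 0.000199, edgeR). Rpl4, of the large subunit and 1422 bases long, averaged 1200 ± 39.2 CPM in NSRdT and 2170 ± 129 CPM in dT (-0.86 ± 0.07). Rps12, of 476 bases, averaged 292.1 ± 24.9 CPM in NSRdT and 814.6 ± 71.3 CPM in dT (-1.48 ± 0.12), the largest fall of the list.

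Of 85 ribosomal protein genes tested, 78 fell and none rose, and their summed share of counts was 2.56 to 2.59% in NSRdT and 6.86 to 7.08% in dT. Between 58 and 70 of them fell with any 1 library left out. These genes have many processed pseudogenes, which could take a part of their reads, so single members are less certain than the sum. The list's median log2 fold change was -0.99 under TMM scaling and was negative under each of the other scalings tried.

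Nuclear genes of oxidative phosphorylation, most of them short, had a median of -0.93, with 20 of 78 lower and none higher. Ndufb6, a complex I subunit, had 19.5, 27.2 and 22.9 CPM in NSRdT against 93.3, 93.9 and 79.9 CPM in dT (-1.94 ± 0.28, adjusted p = 0.00666, edgeR). Cox4i1, a cytochrome oxidase subunit, averaged 109.9 ± 6.22 CPM in NSRdT and 243.3 ± 34.3 CPM in dT (-1.15 ± 0.17). The number that fell was 5, 3 and 3 without NSRdT replicate 1, 2 and 3, and 9, 9 and 10 without dT replicate 1, 2 and 3. Of 39 proteasome subunits 36 passed the filter, with a median of -0.59, and edgeR called none. All 18 of them with an unadjusted p under 0.05 were lower in NSRdT, and DESeq2 called 11 lower.

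Translation factors had a median of -0.47 over 36 genes, with 9 lower and 1 higher, beside 2.15% lower and 2.66% higher over all genes tested. Eef1a1, the elongation factor that delivers tRNA, had 6074, 5965 and 6034 CPM in NSRdT against 8988, 8608 and 8553 CPM in dT (-0.53 ± 0.04, adjusted p = 0.000134, edgeR). Eef1b2 fell as well (-0.85 ± 0.09). The gene that rose was Eif4g1, a long scaffold of the cap-binding complex, at 0.94 ± 0.19 (negative under ERCC scaling), and that call was lost without NSRdT replicate 1 or 2 or any 1 dT library. With single libraries left out, 2 to 7 of the 36 were called lower, with 2 called lower without NSRdT replicate 2 or 3, 3 without NSRdT replicate 1, and 5, 7 and 4 without dT replicates 1, 2 and 3.

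Glycolytic enzyme genes had a median of -0.44 over 19 genes, with 9 lower and 1 higher, beside 2.15% and 2.66% over all genes tested. Aldoa, fructose-bisphosphate aldolase, had 485.1, 464.6 and 442.1 CPM in NSRdT against 728.7, 858.0 and 805.5 CPM in dT (-0.78 ± 0.10, adjusted p = 0.00422, edgeR), and kept its call without any 1 library. Gapdh, often used as a reference gene, averaged 1361 ± 131 CPM in NSRdT and 1934 ± 142 CPM in dT (-0.51 ± 0.09), but its call was lost without NSRdT replicate 1 or 3 or dT replicate 2 or 3. The gene that rose, the hexokinase gene Hk2 (0.68 ± 0.14, negative under ERCC scaling), lost its call without any 1 library. Of the 9 that fell, 2, 3 and 2 were called without NSRdT replicate 1, 2 and 3, and 6, 8 and 4 without dT replicate 1, 2 and 3.

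Pluripotency genes moved in both directions. Pou5f1, which encodes Oct4, had 215.5, 231.9 and 209.2 CPM in NSRdT against 129.1, 177.9 and 126.0 CPM in dT, groups that did not overlap, but its log2 fold change of 0.60 ± 0.18, which is negative under ERCC scaling, did not pass the test (adjusted p = 0.118, edgeR). Sox2 averaged 401.2 ± 60.0 CPM in NSRdT and 480.7 ± 15.5 CPM in dT (-0.26 ± 0.13, adjusted p = 0.375, edgeR), and Nanog averaged 352.8 ± 53.1 CPM in NSRdT and 350.7 ± 26.2 CPM in dT (0.01 ± 0.15, negative under library totals and ERCC scaling).

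Among the called members, Tfcp2l1, a naive pluripotency factor with a modelled transcript of 9269 bases, had 621.8, 677.4 and 543.3 CPM in NSRdT against 177.1, 228.3 and 200.6 CPM in dT (1.60 ± 0.14, adjusted p = 0.000631, edgeR). Dppa5a, of 619 bases and printed above, had 538.1, 620.4 and 571.1 CPM in NSRdT against 1288, 1309 and 1198 CPM in dT (-1.13 ± 0.09, adjusted p = 0.00035, edgeR). In all, 4 of 37 rose (Klf5, Rif1, Tfcp2l1 and Trim71) and 4 fell (Dppa5a, Klf2, Tdh and Zfp42). Among all genes tested the shares were 2.66% higher and 2.15% lower. Rif1, Tfcp2l1, Trim71 and Dppa5a kept their calls without any 1 library. Klf2, Tdh and Zfp42 lost theirs without NSRdT replicate 1, 2 or 3, as did Klf5, whose fold of 0.96 ± 0.19 turns negative under ERCC scaling. Klf5 also lost its call without dT replicate 1 or 2, Klf2 without dT replicate 2 or 3, and Tdh without any 1 dT library. The number that fell was 1 without each NSRdT library, and 3, 2 and 2 without dT replicate 1, 2 and 3.

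Of 37 cell cycle genes Cenpf rose and Ccnd3 fell, with a median of -0.35, and Ccnd3 lost its call without any 1 library. Over all genes tested 2.66% were higher and 2.15% lower, so calls were about as frequent in this list as among all genes. Cenpf (1.62 ± 0.36) lost its call except without dT replicate 3. The laminin genes Lama1 (1.24 ± 0.19) and Lamc1 (0.73 ± 0.12, negative under ERCC scaling), held in the primitive endoderm list and both long, rose, and neither was called without NSRdT replicate 2, nor Lamc1 without NSRdT replicate 3. Vim, an intermediate filament gene of the fibroblast list that ES cells also express, fell (-0.73), and was not called without any 1 library. Actb, of 1920 bases, averaged 1062 ± 80.2 CPM in NSRdT and 1057 ± 93.6 CPM in dT (0.01 ± 0.10), and its sign turns under library totals and ERCC scaling.

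**Figure D5:**
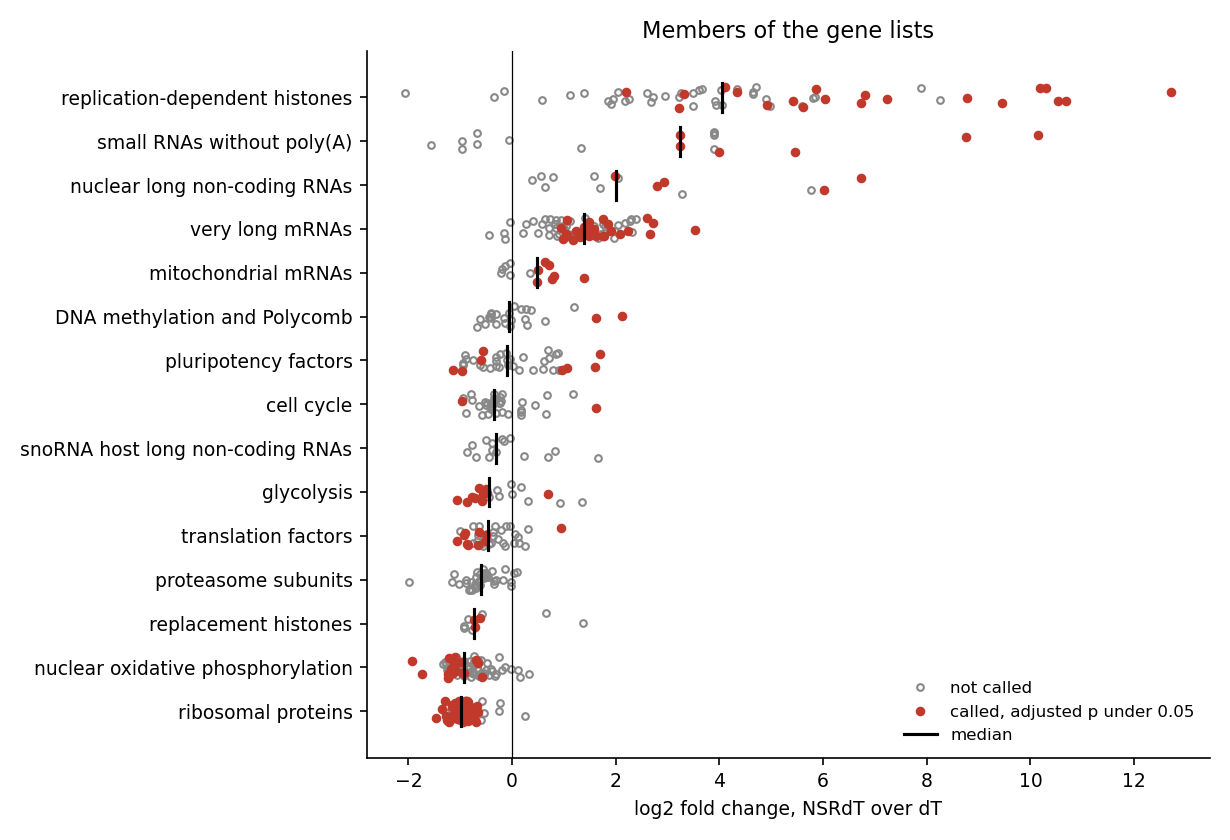
Log2 fold change of NSRdT over dT for every tested member of 15 gene lists, 1 point per gene. Filled points passed an adjusted p under 0.05, and the vertical bar is the list's median, which runs from 4.05 for replication-dependent histones to -0.99 for ribosomal proteins.

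More genes were detected in NSRdT. After each library was thinned to 5333302 counts, 18273, 18263 and 18162 genes had 1 count or more in NSRdT and 15786, 15299 and 15549 in dT, a difference of 2688 (exact permutation test, two-sided, p = 0.1). The difference was 2447 without thinning, 1299 for genes with 5 counts or more, and 3022 after removal of rRNA, rRNA-like and mitochondrial genes and thinning to 2544591 counts. Protein-coding genes made up 13018 ± 11 in NSRdT and 11787 ± 102 in dT. Antisense genes numbered 647 ± 23.2 in NSRdT and 349 ± 14.6 in dT, snoRNA genes 202 ± 12.9 and 93 ± 6.43, and unconfirmed TEC loci 1011 ± 28.2 and 606 ± 28.7. Processed pseudogenes were fewer in NSRdT, at 1243 ± 32.3 against 1345 ± 11.4 in dT. Counting strand is not given in the sources used here, so antisense genes cannot be told apart from the genes they overlap.

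After thinning, 190 genes had 5 counts or more in each NSRdT library and none in dT, of which 82 were protein-coding. Counts of single genes in this paragraph are those before thinning. Some of the 190 then had counts in dT, as 4930417O13Rik with 5.1, 1.0 and 7.0. Besides histones the 190 included the calcium channel gene Ryr2, with 258.9, 102.5 and 106.4 counts in NSRdT. The angiomotin gene Amot had 101.8, 60.9 and 34.3 counts in NSRdT. Conversely, 15 genes had 5 counts or more in each dT library and none in NSRdT after thinning, 13 of them protein-coding. These included Dppa3, a germline and ES cell gene, with 7, 11 and 58 counts in dT, and Spin4, with 244, 144 and 176 counts in dT, and both were at 0 in all NSRdT libraries. Ryr2, Amot, Dppa3 and Spin4 were picked after their values were seen.

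Within protein-coding genes, transcripts annotated as retained introns held 5.26, 5.36 and 5.31% of counts in NSRdT and 3.15, 3.31 and 3.21% in dT. The difference of 2.09 percentage points was far larger than the spread within either group (p = 0.1, exact permutation test), and it was 2.38 points when mitochondrial genes and Lars2 were left out. Transcripts annotated for nonsense-mediated decay, a pathway that removes mRNAs with early stop codons, held 1.92 ± 0.0326% in NSRdT and 1.82 ± 0.024% in dT. Without mitochondrial genes and Lars2 they held 2.35 ± 0.0349% in NSRdT and 2.34 ± 0.0214% in dT, and the libraries then overlapped (p = 0.6, exact permutation test). The split of a gene's counts among its transcripts is an estimate by software that is not named in the sources used here.

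Gene ranks in NSRdT correlated more with those of bulk RNA, and levels varied less between libraries. By summed share, nuclear protein-coding genes lay closer to bulk in dT, with 45.7% in NSRdT and 67.8% in dT against 72.6% in bulk. The Spearman correlation with the bulk mean over the 16164 genes with at least 1 CPM in bulk was 0.892, 0.891 and 0.892 for NSRdT and 0.837, 0.837 and 0.840 for dT, and genes are not independent. The median coefficient of variation over 3 libraries was 0.299 in NSRdT and 0.391 in dT across the 9310 genes with at least 10 CPM in bulk, against 0.0763 between the bulk libraries themselves. Over the 6854 genes at 10 CPM or more in both groups it was 0.251 in NSRdT and 0.321 in dT.

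Levels with NSR alone are set beside both groups for single members. Rps18 had 468 ± 28 CPM of library total in NSRdT and 1510 ± 21 CPM in dT, against 71.9 ± 15 CPM with NSR alone. Dppa5a had 486 ± 40 CPM in NSRdT and 1480 ± 69 CPM in dT, against 116 ± 4.8 CPM with NSR. Ndufb6, H2afz and H3f3a were also far lower with NSR than in NSRdT. Not every mRNA that fell was so low. Rps12 had 295 ± 16 CPM with NSR and 246 ± 19 CPM in NSRdT. Rpl4 had 883 ± 35 CPM with NSR and 1010 ± 32 CPM in NSRdT, and Gapdh 1130 ± 83 CPM and 1150 ± 120 CPM. Malat1 had 3840 ± 110 CPM in NSRdT, 50.3 ± 18 CPM in dT and 3660 ± 190 CPM with NSR. In bulk, which was made with a different kit from far more RNA, Malat1 had 9710 ± 230 CPM, and Rpph1 had 6870 ± 950 CPM, against 258 ± 31 CPM in NSRdT and 0.3 ± 0.44 CPM in dT.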

How the data were processed

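RNA abundance was measured in 6 libraries, 3 NSRdT and 3 dT. The deposited table holds expected or estimated counts per GENCODE transcript, not normalized, per the file headers. The mm10 build and bcl2fastq 2.16.0.10 are named in the submitters' processing notes, while aligner, quantifier and counting strand were not given in the sources used here. Estimates of 115125 entries were summed over 47643 gene identifiers and rounded, and 92 ERCC sequences were kept out of totals and tests. Members, lists and naming rule were chosen with earlier results of these data known.

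For the gene tests edgeR 4.0.16 ran under R 4.3.3 (TMM scaling, filterByExpr, quasi-likelihood F test, Benjamini-Hochberg adjustment over all genes tested, called under 0.05), and the test was tried on simulated data. Alternatives were DESeq2 1.42.0, other scalings (ERCC totals added after seeing the data), no filter, a replicate block and leaving out each library. Shares and detected genes were compared by two-sided exact permutation tests. Length is that of the transcript of a gene with most counts on average, and 82.1% of tested genes had a GENCODE vM21 sequence of the same version. Named genes were up to 12 higher and 12 lower called genes by fold change with a mean log2 CPM of at least 5, 2 members of each list by abundance and 2 by smallest p, called list members, and a fixed set of markers and RNAs, and not every gene so allowed is printed. A fold against 0 counts in dT uses a floor of 3 counts per library. Counts are PCR reads without molecular identifiers. Python 3.11.15, numpy 2.4.6, pandas 2.3.3, scipy 1.17.1 and matplotlib 3.10.9 were used.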

Additional observations from a re-analysis of the deposited data

Results flagged for a closer look

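ERCC spike-in sequences, which no comparison of the study uses and the labels do not mention, held 0.516 ± 0.018% of all counts in NSRdT and 0.371 ± 0.015% in dT (SD, n = 3 each). The difference of 0.146 percentage points had p = 0.1 in a two-sided exact permutation test, the smallest that 3 against 3 libraries allow. With NSR alone the share was 0.47 ± 0.016%. ERCC RNAs carry poly(A) tails and are detected in all 6 libraries. What the difference rests on was not tested.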

How the results depend on the processing

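The number of genes called depended most on the processing. Against 627, it was 2028 with DESeq2, 1293 with library totals alone, 598 with totals of nuclear mRNAs, 2952 with ERCC totals, 1161 without a filter and 1203 in a fit of all 15 RT-RamDA libraries, and the cause was not tested. All 627 genes were also called, in the same direction, by DESeq2. With any 1 library left out, and so fewer samples, 236 to 474 genes were called.

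With the replicate block 345 genes were called. The labels do not say that same-lettered wells belong together, and deviations of same-numbered libraries correlated at 0.0136, -0.0401 and 0.0129 over 4215 genes, so the numbers were not used for pairing.

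The rank correlation of length with fold change of 0.426 was 0.707 among abundant genes, with log2 CPM averaging at least 5, and 0.393 to 0.402 with any 1 library left out. The replicate spread difference in median CV of -0.0921 (NSRdT minus dT) was -0.0694 over genes at 10 CPM or more in both groups. The log2 fold change of Actb, 0.01 under TMM, was -0.47 (adjusted p = 0.0242, edgeR) with library totals alone. For single genes, 767 recomputed values stayed on the same side of the threshold, 137 lost a call, 22 gained one and 1 was reversed. Folds near 0, such as those of Actb and Nanog, changed sign under some scalings. Under ERCC scaling 463 of the 627 genes were also called, 456 of them in the same direction. Detected genes, transcript types and the shares of nuclear mRNAs, rRNA, histones, misc_RNA and lincRNA kept their direction under the alternatives run. The pseudogene share, 0.634 percentage points lower in NSRdT, was 0.0493 points higher with overlapping libraries once rRNA and mitochondrial genes left the total, and the share of remaining gene types also turned, to 0.0187 points higher. Both pseudogene values leave out Gm15662, counted with the rRNA-like loci. It had 8430 ± 370 CPM of library total in NSRdT and 1800 ± 190 CPM in dT. Depth limits genes under about 3 counts per library.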

Other observations

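After the values were seen, 4 genes stood out with 5 counts or more in each of the 6 NSRdT and NSR libraries and 0 in all dT, N6, N6dT and bulk libraries. They were the cytokine gene Tnf, with 530, 240 and 335 counts in NSRdT and 741, 679 and 659 counts with NSR, the immunoglobulin segment Igkv1-110, with 115, 72 and 88.6 counts in NSRdT and 85, 94 and 61 counts with NSR, the T cell receptor complex gene Cd3g, with 63, 31 and 15 counts in NSRdT, and the cornea proteoglycan gene Kera, with 24, 19 and 29 counts in NSRdT. No gene had the same pattern for N6 and N6dT. The ribosomal protein gene Rps12 was listed at 0 in all 3 bulk libraries, against 246 CPM of library total in NSRdT and 955 CPM in dT.

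Among 343 zinc finger genes with Zfp symbols, 279 passed the filter, 6 were higher and 1 lower in NSRdT, with 1, 1 and 3 higher without NSRdT replicate 1, 2 and 3. Over all 13049 genes tested 2.66% were higher and 2.15% lower, so calls were no more frequent among zinc finger genes than among all genes. The median log2 fold change of the zinc finger genes was 0.38, and it was -0.10 under library totals and -0.57 under ERCC scaling. Of 360 tested lincRNA genes 25 were higher and none lower, beside 2.66% higher and 2.15% lower over all genes tested. Of these lincRNA genes 10 were called higher without any 1 NSRdT library and 16, 21 and 14 without dT replicate 1, 2 and 3. Some lincRNA genes, such as Gm26763 and Gm26836, had no counts in dT and passed the filter only through NSRdT, so these counts only describe the class.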
